A study of Mus musculus with 13 samples.

Results

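The genes described here are 10 genes of the unfolded protein response, the program that cells switch on when unfolded proteins collect in the endoplasmic reticulum (ER). They are Hspa5, Hsp90b1, Dnajb9, Sdf2l1, Creld2, Pdia4, Herpud1, Syvn1, Xbp1 and Atf6, genes of known function in this response that were chosen with earlier results of these data known, and each symbol was matched to a single Ensembl gene among the 43430 genes of the count table. All 10 were among the 11906 genes with enough counts to be tested. RNA was sequenced from alveolar macrophages, which live in the air sacs of the lung and engulf inhaled particles, sorted by flow cytometry from 13 male C57Bl/6 mice, 1 library per mouse, at 10 weeks of age. Mice drank water with metformin, a biguanide drug for type 2 diabetes, at 100 mg/kg/day from 24 h before an intratracheal instillation, or were given vehicle. Each mouse was then instilled with a NIST reference particulate matter (PM), at 10 µg per animal, or with phosphate-buffered saline (PBS), and its macrophages were taken 24 h afterwards. The group sizes were 4 mice for vehicle PBS and 3 mice each for metformin PBS, vehicle PM and metformin PM, names that join the drink and the instillate. No group shows lungs without an instillation, and 1 dose and 1 time of each agent were used. The series is about metformin and the thrombosis that air pollution induces.

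The ER folds secreted and membrane proteins with the help of chaperones, of enzymes that form disulfide bonds, and of a disposal route that sends misfolded proteins back to the cytosol for degradation. Unfolded proteins draw the chaperone BiP, the product of Hspa5, away from 3 membrane sensors: IRE1 (gene Ern1), which splices Xbp1 RNA into the form that encodes an active transcription factor; ATF6, which is cut to release a transcription factor; and PERK (gene Eif2ak3), which slows translation and raises ATF4 and CHOP (gene Ddit3). Counts per gene do not tell spliced from unspliced Xbp1 RNA, nor cut from uncut ATF6.

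ATF6 and XBP1 bind short promoter elements, so the promoters are shown first where they hold one. The RefSeq promoter table (GRCm38.p6, 250 bases before to 50 after each start) had 9 of the 10 genes, all but Atf6. Both strands were searched for the ER stress response element (ERSE, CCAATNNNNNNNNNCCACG), for ERSE-II (ATTGGNCCACG) and for the core of the unfolded protein response element (TGACGTGG). No match overlapped another in the 9 promoters. ERSE was found in 4 of the 9 promoters against 0.119% of all 32851 promoters in the table, and ERSE-II in 1 of the 9 against 0.0365%. The core TGACGTGG was in none of the 9 and in 0.676% of all. The 10 genes were chosen for their known part in this response, so these shares carry no test and are not a separate result. The matches are in capitals below, read along the gene's strand, with all 250 bases before the start for Hspa5 and the bases around the matches for the others.
Hspa5 (chr2:34771840-34772089, plus strand, ERSE 65 bases before the start): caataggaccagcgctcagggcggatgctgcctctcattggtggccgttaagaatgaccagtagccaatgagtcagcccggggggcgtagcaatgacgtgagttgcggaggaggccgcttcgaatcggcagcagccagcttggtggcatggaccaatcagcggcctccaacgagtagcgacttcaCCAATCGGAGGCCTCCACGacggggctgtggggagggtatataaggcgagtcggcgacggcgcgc
Hsp90b1 (chr10:86705493-86705694, minus strand, ERSE at 212 bases and, on the opposite strand, at 107 bases before the start): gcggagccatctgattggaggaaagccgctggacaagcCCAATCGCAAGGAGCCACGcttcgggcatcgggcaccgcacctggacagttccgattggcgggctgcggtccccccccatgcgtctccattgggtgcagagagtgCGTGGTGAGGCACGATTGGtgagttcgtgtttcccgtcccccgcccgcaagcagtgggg
Creld2 (chr15:88819480-88819578, plus strand, ERSE on the opposite strand 126 bases before the start): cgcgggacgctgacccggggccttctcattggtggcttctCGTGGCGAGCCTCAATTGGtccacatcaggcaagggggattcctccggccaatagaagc
Syvn1 (chr19:6046492-6046590, plus strand, ERSE 44 bases before the start): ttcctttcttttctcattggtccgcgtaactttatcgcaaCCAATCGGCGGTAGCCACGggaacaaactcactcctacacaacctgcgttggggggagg
Herpud1 (chr8:94386337-94386427, plus strand, ERSE-II 52 bases before the start): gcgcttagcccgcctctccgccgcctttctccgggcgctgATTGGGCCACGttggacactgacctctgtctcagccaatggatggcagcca
The promoters of Dnajb9, Sdf2l1, Xbp1 and Pdia4 held none of the 3 exact strings, which says only that these letters are not in the window searched.

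Libraries held 5.57 to 8.10 megacounts, with means of 6.12 ± 0.373 in vehicle PBS, 6.26 ± 0.148 in metformin PBS, 6.61 ± 0.468 in vehicle PM and 7.50 ± 0.863 megacounts in metformin PM (SD). All 11 alveolar macrophage markers looked at, Siglecf, Marco and Chil3 among them, passed the count filter, and their levels in CPM (counts per 1000000 counts) summed to 21400 to 27200 CPM in every library. Among the markers of other cells, those of monocytes summed to 570 to 689 CPM with PBS and 721 to 859 CPM with PM, and 4 of 10 (6 tested) were higher with PM in both drinking-water arms. Those of plasma and B cells, which themselves express the unfolded protein response strongly, summed to 1.69 to 6.11 CPM with PBS and 8.94 to 22.2 CPM with PM. Of these 10 markers 3 were tested, Jchain, Igkc and Igha, and all 3 were called higher with PM in both arms and none was called for metformin. Of 9 neutrophil markers 4 were tested, Ly6g, Retnlg and Camp were at 0 counts in every library, and the sum was 58.3 to 82.7 CPM. T and NK cell markers summed to at most 1.09 CPM. The 6 epithelial markers summed to 223 to 286 CPM. Endothelial markers summed to 6.47 to 14.7 CPM with PBS, 7.49 to 17.9 CPM in vehicle PM and 12.9 to 28.8 CPM in metformin PM, where 1 of the 5 was higher than in vehicle PM. Running numbers in the titles follow the groups, so the order of processing and the group cannot be told apart.

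Levels of different genes are compared per kilobase of exon (RPKM). In vehicle PBS macrophages the ER chaperones Hsp90b1, at 258 ± 7.93 RPKM (SD, n = 4), and Hspa5, at 236 ± 30.2 RPKM, led the order, and their spreads overlapped. Xbp1 at 115 ± 7.98 RPKM and Pdia4 at 112 ± 4.05 RPKM came next and also did not differ beyond their spread. Below them lay Sdf2l1 at 76.7 ± 8.21 RPKM, then Dnajb9 at 50.8 ± 9.28 and Herpud1 at 48.1 ± 6.97 RPKM, again within their spread. Creld2 at 31.4 ± 1.83 RPKM, Syvn1 at 12.8 ± 2.74 RPKM and Atf6 at 9.17 ± 0.64 RPKM closed the order. In metformin PM macrophages Hspa5 stood first, at 453 ± 19.4 RPKM against 303 ± 14.3 RPKM for Hsp90b1 (n = 3), and Herpud1, at 108 ± 5.47 RPKM, stood beside Sdf2l1, at 105 ± 10.5 RPKM. Atf6 was again the lowest, at 8.54 ± 0.254 RPKM. The fewest reads behind any value of the 10 genes were 229 counts for Creld2 and the most 15757 counts for Hspa5.

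The values below are CPM, scaled by the trimmed mean of M values, in the order of the numbers in the titles, which are 1 to 4 for vehicle PBS, 1 to 3 for vehicle PM, and 1, 3 and 4 for each metformin group. Hspa5 encodes BiP, the main Hsp70 chaperone of the ER (chr2:34771970-34777547, plus strand). Its levels were 868, 1076, 1132 and 909 CPM in vehicle PBS, 1780, 1064 and 1400 CPM in metformin PBS, 1302, 1054 and 1191 CPM in vehicle PM, and 1849, 2007 and 1892 CPM in metformin PM. All 3 metformin PM libraries lay above all 10 others, while metformin PBS 3 lay inside the vehicle PBS range. Hsp90b1 encodes GRP94, the Hsp90 chaperone of the ER (chr10:86690209-86705509, minus strand). It read 1028, 1019, 1087 and 1025 CPM in vehicle PBS, 1116, 999.7 and 1096 in metformin PBS, 1051, 1237 and 1127 in vehicle PM, and 1204, 1288 and 1177 in metformin PM. The 4 groups lay close together, and a vehicle PM library reached into the metformin PM range. Of its 4032 exon bases, 415 are shared with 1810014B01Rik on the opposite strand, which had 1285 to 2374 counts, and the kit keeps no strand, so its counts are less certain.

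Dnajb9 encodes ERdj4, a J-domain partner of BiP (chr12:44205897-44210068, minus strand). Its levels were 112, 139, 158 and 109 CPM in vehicle PBS, 223, 121 and 176 CPM in metformin PBS, 195, 144 and 164 CPM in vehicle PM, and 222, 250 and 261 CPM in metformin PM. Metformin PBS 1 lay just above the lowest metformin PM library, and metformin PBS 3 lay inside the vehicle PBS range. Sdf2l1, a component of a BiP-containing chaperone complex of the ER (chr16:17130138-17132383, minus strand), read 97.2, 80.5, 85.9 and 76.1 CPM in vehicle PBS, 117, 73.1 and 86.6 in metformin PBS, 83.3, 106 and 95.3 in vehicle PM, and 104, 127 and 117 in metformin PM. The groups overlapped in every comparison made below. Creld2, an ER-resident protein with disulfide isomerase activity that is secreted under ER stress (chr15:88819646-88826681, plus strand), read 41.0, 43.2, 46.2 and 40.9 CPM in vehicle PBS, 60.7, 36.6 and 49.3 in metformin PBS, 51.4, 49.3 and 44.2 in vehicle PM, and 72.5, 79.0 and 78.6 in metformin PM. The metformin PM libraries stood clear of all the others, and metformin PBS 3 was the lowest of all 13.

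Pdia4 encodes the disulfide isomerase ERp72, which forms and rearranges disulfide bonds (chr6:47796142-47813512, minus strand). It read 266, 265, 283 and 261 CPM in vehicle PBS, 298, 224 and 253 in metformin PBS, 261, 315 and 287 in vehicle PM, and 299, 366 and 311 in metformin PM. Among the pairs compared below, only metformin PBS and metformin PM were fully apart, and there by the gap between 298 and 299 CPM. Herpud1 encodes a membrane protein of the ER that organises the degradation complex (chr8:94386438-94395377, plus strand). Its levels were 95.6, 121, 131 and 102 CPM in vehicle PBS, 218, 138 and 195 CPM in metformin PBS, 169, 135 and 130 CPM in vehicle PM, and 260, 260 and 238 CPM in metformin PM. Metformin libraries lay above vehicle libraries with PBS and with PM. Syvn1 encodes HRD1, the ubiquitin ligase of the same route (chr19:6046576-6053712, plus strand). It read 46.7, 61.9, 79.2 and 61.5 CPM in vehicle PBS, 111, 73.6 and 101 in metformin PBS, 79.7, 61.6 and 73.8 in vehicle PM, and 121, 125 and 126 in metformin PM. The metformin PM libraries were again the highest, and 91 of the 4859 exon bases of Syvn1 are shared with Mrpl49, which had 99 to 155 counts.

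Xbp1 is the transcription factor gene downstream of IRE1 (chr11:5520659-5525893, plus strand). Its levels were 343, 371, 405 and 380 CPM in vehicle PBS, 472, 389 and 416 CPM in metformin PBS, 414, 370 and 386 CPM in vehicle PM, and 541, 545 and 547 CPM in metformin PM. The 3 metformin PM values lay closest together of any group and above the other 10 libraries. Atf6 encodes the sensor and transcription factor itself (chr1:170704674-170867771, minus strand). It read 85.9, 85.1, 76.7 and 90.9 CPM in vehicle PBS, 73.2, 85.7 and 83.3 in metformin PBS, 89.1, 87.1 and 87.5 in vehicle PM, and 77.2, 77.8 and 81.6 in metformin PM. It was the only one of the 10 whose metformin PM libraries lay below every vehicle PM library.

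**Figure D1:**
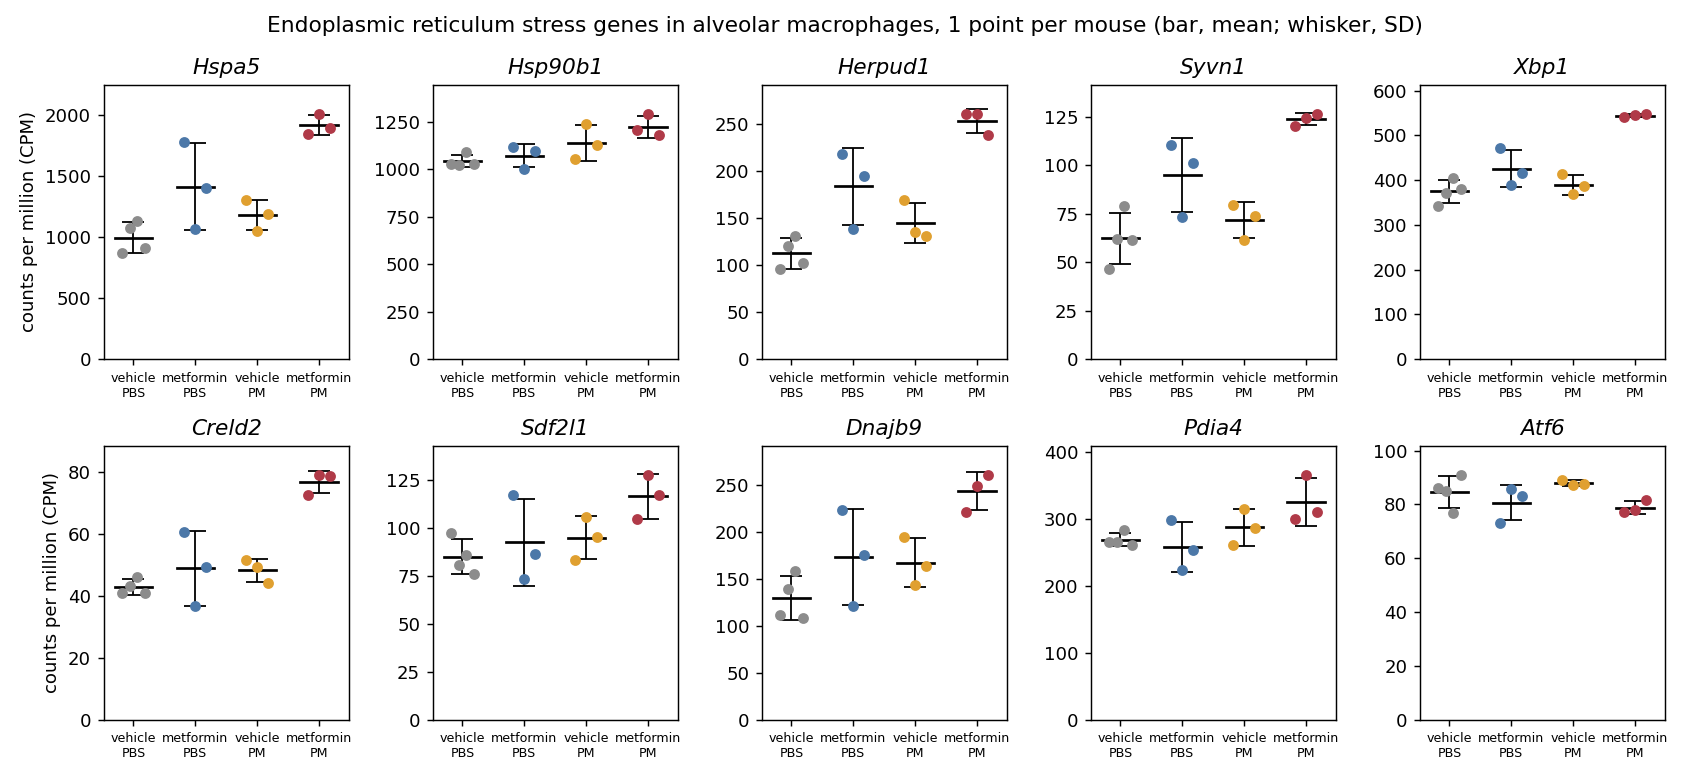
Level of the 10 genes in each mouse, in CPM (vertical axes, each starting at 0), by group (horizontal axes); points are libraries, bars are means and whiskers are SDs. The metformin PM libraries of Hspa5, Herpud1, Syvn1, Xbp1 and Creld2 lie above all other libraries, a pattern whose share among all genes was not counted. The groups of Hsp90b1 and Pdia4 lie closer together, and Atf6 is lower in metformin PM than in vehicle PM.

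For 8 of the 10 genes the coefficient of variation was highest in metformin PBS. The exceptions were Hsp90b1 (5.8% against 8.23% in vehicle PM) and Syvn1 (20.3% against 21.4% in vehicle PBS). Metformin PBS 1 was the highest of its group for 9 of the 10 genes and metformin PBS 3 the lowest for 9, at median deviations from the group mean of 0.26 and -0.33 on the log2 scale. In the metformin PM group the median deviations were -0.044, 0.043 and 0.012. For Hspa5 the SD was 358 CPM in metformin PBS and 81.9 CPM in metformin PM. Metformin PBS 1 also stood apart over genes at large, by the chi-square per degree of freedom between 2 libraries of a group. This was 6.73 against metformin PBS 3, 6.08 against metformin PBS 4, 2.29 between those 2 libraries and at most 4.5 in the other groups. The share of all genes with their highest coefficient of variation in metformin PBS was not counted. Counts of calls among these and the other pathway genes below that rest on metformin PBS are therefore also given without single libraries of this group. For PM on metformin, the pathway genes named beside the 10 are given with all libraries only. In bulk RNA, fewer cells of a type and less RNA per cell cannot be told apart.

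In PM-exposed mice, metformin was followed by higher levels of chaperone, degradation and transcription factor genes. Hspa5 rose from 1182 ± 124 to 1916 ± 81.9 CPM (SD, n = 3 each), Herpud1 from 144 ± 21 to 253 ± 12.8 CPM, Syvn1 from 71.7 ± 9.23 to 124 ± 2.93 CPM, Xbp1 from 390 ± 22.4 to 544 ± 3.09 CPM, Creld2 from 48.3 ± 3.7 to 76.7 ± 3.64 CPM and Dnajb9 from 168 ± 25.9 to 244 ± 20 CPM. By edgeR's quasi-likelihood test with Benjamini-Hochberg adjustment, fitted on all 13 libraries, these 6 of the 10 genes were called higher at an adjusted p under 0.05. Over all genes tested, 4.08% were called higher and 6.89% in either direction. In all 6, every metformin library lay above every vehicle library, as did 13.4% of all genes, and the fitted change was above 0 for 9 of the 10 against 48.9% of all genes. The median log2 fold change was 0.51 for the 10 genes and -0.004 for all genes.

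In this comparison the degradation genes Herpud1 and Syvn1 had the largest log2 fold changes, 0.80 ± 0.13 (SE; 1.75-fold; edgeR adjusted p = 0.000718) and 0.79 ± 0.14 (1.72-fold; edgeR adjusted p = 0.00151). Among the chaperones, Hspa5 rose by 0.70 ± 0.13 (1.62-fold; edgeR adjusted p = 0.00217), Creld2 by 0.66 ± 0.11 (1.58-fold; 0.00117) and Dnajb9 by 0.54 ± 0.16 (1.45-fold; 0.0471). Xbp1 rose by 0.48 ± 0.07 (1.40-fold; edgeR adjusted p = 0.000229), the lowest p of the 10. The calls of Hspa5, Herpud1, Syvn1, Xbp1 and Creld2 held in each of the 13 fits that left out 1 library. Dnajb9 was called in only 6 of those 13 and not by DESeq2 (adjusted p = 0.163). The other 4 genes were not called. Sdf2l1 differed by 0.30 ± 0.13 (edgeR adjusted p = 0.187), Pdia4 by 0.18 ± 0.09 (0.277), Hsp90b1 by 0.10 ± 0.06 (0.362) and Atf6 by -0.16 ± 0.07 (0.2). The 95% interval for Hsp90b1, -0.023 to 0.23, lay below the fitted change of each of the 6 called genes. Its promoter is the one shown above with ERSE on both strands, and whether the element bears on these changes was not tested. Plasma and B cell markers summed to 8.94 to 22.2 CPM in vehicle PM and 9.49 to 22.2 CPM in metformin PM, ranges that coincide. Endothelial markers, 1 of 5 called higher, summed to 7.49 to 17.9 CPM and 12.9 to 28.8 CPM. Alveolar macrophage markers, 1 of 11 called lower, summed to 22200 to 24600 and 24200 to 27100 CPM. Neutrophil markers, none called, summed to 58.3 to 65.2 and 65.7 to 66 CPM, ranges that do not overlap. Monocyte markers, none called, summed to 721 to 827 and 797 to 859 CPM. Epithelial markers, none called, summed to 223 to 261 and 250 to 286 CPM. The part of these cells in the result was not tested.

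In PBS mice metformin was followed by higher levels of Herpud1, Syvn1 and Hspa5. Herpud1 rose from 112 ± 16.3 to 184 ± 40.8 CPM (SD, n = 4 and 3), Syvn1 from 62.3 ± 13.3 to 95.1 ± 19.3 CPM and Hspa5 from 996 ± 128 to 1415 ± 358 CPM. These 3 of the 10 genes were called higher, against 1.13% of all genes called higher and 3.07% called in either direction. Only for Herpud1 were the libraries of the groups fully apart (6.20% of all genes), and 8 of the 10 fitted changes were above 0 (49.0% of all genes). The median log2 fold change was 0.186 for the 10 genes and -0.0036 for all genes.

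By edgeR's quasi-likelihood test the log2 fold change with PBS was 0.71 ± 0.13 for Herpud1 (1.63-fold; adjusted p = 0.00441), 0.61 ± 0.14 for Syvn1 (1.53-fold; 0.017) and 0.51 ± 0.12 for Hspa5 (1.42-fold; 0.0239). Dnajb9 at 0.42 ± 0.15 (edgeR adjusted p = 0.155), Creld2 at 0.19 ± 0.12 (0.424) and Xbp1 at 0.18 ± 0.06 (0.132) were not called. Sdf2l1, Hsp90b1, Pdia4 and Atf6 had values of 0.12, 0.04, -0.06 and -0.07, with edgeR adjusted p of 0.654 to 0.792. Herpud1 was called in all 13 fits that left out a library, with log2 fold changes of 0.573 to 0.879. Without metformin PBS 1, vehicle PBS 1 or metformin PBS 4 it was the only one of the 10 called. In these fits 1.08%, 0.413% and 0.315% of all genes were called higher, in that order. Without metformin PBS 1 Hspa5 stood at 0.311 (edgeR adjusted p = 0.127) and Syvn1 at 0.493 (0.0789). Without metformin PBS 3 Dnajb9 was called too (0.928% of all genes called higher), and Hspa5 stood at 0.678. Fitted on the vehicle PBS and metformin PBS libraries alone, Hspa5 (edgeR adjusted p = 0.0646) and Syvn1 (0.0515) were not called, and DESeq2 did not call Hspa5 (adjusted p = 0.0505). Of the cell markers, 1 neutrophil, 1 epithelial and 1 alveolar macrophage marker were called lower here. Their sums were 65.4 to 82.7 CPM in vehicle PBS and 61.9 to 65 CPM in metformin PBS for neutrophils, 228 to 275 and 234 to 284 CPM for epithelium, and 22400 to 27200 and 21400 to 23600 CPM for alveolar macrophages, and their part in the result was not tested.

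In mice on metformin, PM was followed by higher levels of 7 of the 10 genes, chaperones and Xbp1 among them. Levels rose from metformin PBS to metformin PM for Creld2 (48.9 ± 12.1 to 76.7 ± 3.64 CPM; SD, n = 3 each), Xbp1 (426 ± 42.2 to 544 ± 3.09), Herpud1, Hspa5, Dnajb9, Pdia4 (258 ± 37.1 to 325 ± 35.5) and Hsp90b1 (1070 ± 62 to 1223 ± 57.7). These 7 were called higher, against 7.18% of all genes called higher and 12.8% in either direction. The libraries were fully apart for 7 genes (16.1% of all genes), Syvn1 in place of Dnajb9, and 9 of the 10 fitted changes were above 0 (50.9%). The median log2 fold change was 0.367 for the 10 genes and 0.0048 for all genes.

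By edgeR's quasi-likelihood test Creld2 had the largest log2 fold change, 0.65 ± 0.11 (1.57-fold; adjusted p = 0.000778). Xbp1 followed in rank of p with 0.35 ± 0.07 (1.28-fold; edgeR adjusted p = 0.00181), then Pdia4 at 0.33 ± 0.09 (0.0192), Herpud1 at 0.46 ± 0.13 (0.022), Hspa5 at 0.44 ± 0.13 (0.0294), Hsp90b1 at 0.19 ± 0.06 (0.042) and Dnajb9 at 0.49 ± 0.16 (0.0476). Syvn1 at 0.38 ± 0.14 (edgeR adjusted p = 0.0758) and Sdf2l1 at 0.33 ± 0.13 (0.0958) were not called, nor was Atf6 at -0.04 ± 0.07 (0.805). Xbp1 and Creld2 were called in all 13 fits that left out a library. They were the only 2 called without metformin PBS 3 or without metformin PM 3. In these fits 4.08% and 3.96% of all genes were called higher. The count was 3 without metformin PBS 4 or metformin PM 1, 4 without metformin PM 4 and 9 without metformin PBS 1. There 4.38%, 5.28%, 5.14% and 6.97% of all genes were called higher, in that order. DESeq2 called 4 of the 10, Hsp90b1, Xbp1, Creld2 and Pdia4, and 1266 genes in all against 1522 by edgeR. With RLE scaling Hsp90b1 (edgeR adjusted p = 0.05) and Dnajb9 (0.0501) were no longer called. Plasma and B cell markers summed to 1.69 to 5.1 CPM in metformin PBS and 9.49 to 22.2 CPM in metformin PM, monocyte markers to 570 to 689 and 797 to 859 CPM, and endothelial markers, 2 of 5 called higher, to 6.47 to 11.6 and 12.9 to 28.8 CPM. Epithelial markers summed to 234 to 284 and 250 to 286 CPM, with 3 of 6 called higher and 1 lower, and neutrophil markers to 61.9 to 65 and 65.7 to 66 CPM, with 1 of 9 called higher. Alveolar macrophage markers, 5 of 11 called higher and 3 lower, summed to 21400 to 23600 CPM in metformin PBS and 24200 to 27100 CPM in metformin PM, ranges that do not overlap. The part of these cells in the result was not tested.

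In mice on vehicle, PM was followed by no call among the 10 genes. The 3 largest fitted changes were those of Hspa5, 996 ± 128 against 1182 ± 124 CPM, Herpud1, 112 ± 16.3 against 144 ± 21 CPM, and Dnajb9, 130 ± 23.6 against 168 ± 25.9 CPM (SD, n = 4 and 3). The libraries of the groups overlapped for all 10 genes, while 7.33% of all genes had every PM library above every PBS library. Neither edgeR nor DESeq2 called any, against 4.85% of all genes called by edgeR in either direction and 2.60% called higher. An unadjusted edgeR p under 0.05 was seen for 3 of the 10, and the share of all genes at that unadjusted threshold was not counted. All 10 fitted changes were above 0 (49.6% of all genes), with a median log2 fold change of 0.165 against -0.0013 for all genes. By edgeR they were 0.37 ± 0.15 for Dnajb9 (SE; adjusted p = 0.214), 0.36 ± 0.13 for Herpud1 (0.122), 0.25 ± 0.12 for Hspa5 (0.311) and 0.13 ± 0.06 for Hsp90b1 (0.237). The other 6 ranged from 0.06 for Xbp1 and Atf6 to 0.20 for Syvn1, with edgeR adjusted p of 0.502 to 0.753. In the fit without metformin PBS 3, whose spread enters the shared estimate, Herpud1 was called at 0.365 (edgeR adjusted p = 0.0363). The plasma and B cell markers summed to 1.74 to 6.11 CPM in vehicle PBS and 8.94 to 22.2 CPM in vehicle PM. Alveolar macrophage markers, 3 of 11 called higher and 3 lower, summed to 22400 to 27200 and 22200 to 24600 CPM.

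**Figure D2:**
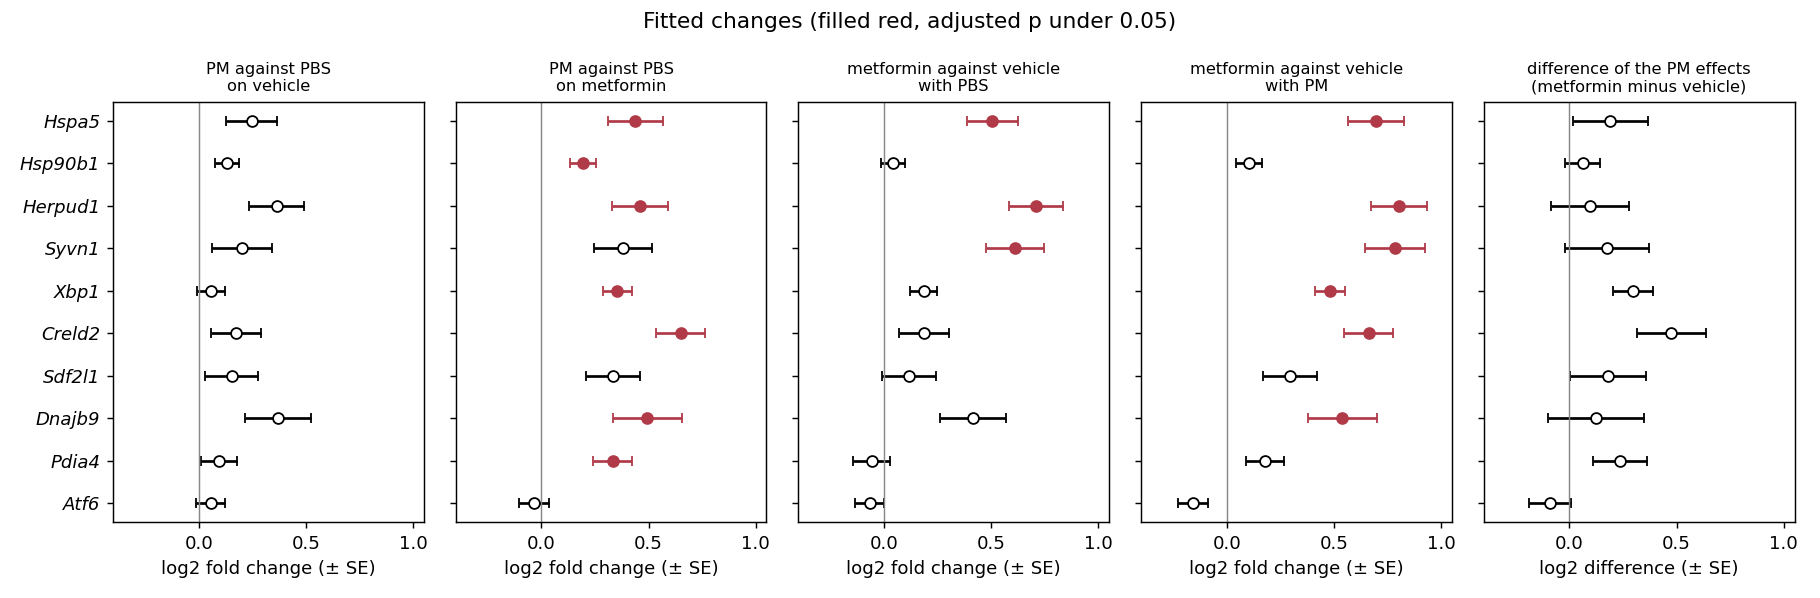
Fitted log2 fold change of each gene (horizontal axes; points, with whiskers of 1 SE) in the 4 comparisons and, at the right, the difference of the PM effects; filled red points have an edgeR adjusted p under 0.05. Calls number 0, 7, 3, 6 and 0 from left to right, and Atf6 is the gene whose point lies below 0 in every panel but the first.

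The 4 comparisons share groups pairwise, so their values are not independent: metformin PM enters both PM on metformin and metformin with PM. Whether the PM effect itself differed between the drinking-water arms was tested directly, and the same contrast tests whether the metformin effect differed between PM and PBS. None of the 10 genes was called for the difference (metformin minus vehicle) by edgeR or DESeq2, against 1.44% of all genes by edgeR. Of the 10, 2 had an unadjusted edgeR p under 0.05, a threshold whose share of all genes was not counted. The difference was above 0 for 9 of the 10 genes (51.4% of all genes), with a median of 0.178 against 0.0062 for all genes on the log2 scale. By edgeR it was 0.48 ± 0.16 for Creld2 (95% interval 0.14 to 0.82; adjusted p = 0.198) and 0.30 ± 0.09 for Xbp1 (0.099 to 0.49; adjusted p = 0.155). For Pdia4 it was 0.24 ± 0.12 (edgeR adjusted p = 0.484) and for Hspa5 0.19 ± 0.18, with a 95% interval of -0.18 to 0.56 (adjusted p = 0.756). The calls for PM on metformin and the lack of them on vehicle are thus not shown to differ for any single gene, nor are the metformin effects with PM and with PBS. Without metformin PBS 1 the difference was called for 2 of the 10, Xbp1 and Creld2, and for 2.08% of all genes.

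Other genes of the pathway were counted in 6 lists by role, 89 genes beside the 10, of which 87 had enough counts to be tested. Metformin with PM was followed by 11 higher and 1 lower of the 87, 12.6% called higher against 4.08% of all genes and 13.8% called in either direction against 6.89%. The median log2 fold change was 0.072 against -0.004 for all genes. The number called higher was 6 without vehicle PM 2 (6.9% against 2% of all genes in the same fit). It was 7 without vehicle PM 3 (8.05% against 3.03%) or metformin PM 3 (8.05% against 2.92%). Of the 10 other sensors and transcription factors 3 were higher: Ddit3 at 0.81 ± 0.17 (SE; edgeR adjusted p = 0.0051), Creb3l2, an ATF6-like transcription factor, at 0.42 ± 0.08 (0.0035), and Eif2ak3, which encodes PERK, at 0.35 ± 0.07 (0.00416). Ddit3, the pro-apoptotic factor CHOP, was low in all libraries: 5.54, 5.48, 8.29 and 5.72 CPM in vehicle PBS, 12.4, 9.08 and 13.1 in metformin PBS, 7.35, 7 and 8.78 in vehicle PM, and 14.3, 13.4 and 12.8 in metformin PM. All 6 metformin libraries lay above all 7 vehicle libraries, by the gap between 9.08 and 8.78 CPM, and the share of all genes with this pattern was not counted. Ddit3 shares 68 of its 1713 exon bases with Mars on the opposite strand, which had 341 to 542 counts, so its values are less certain.

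Of 15 other chaperones 3 rose with metformin in PM mice. Manf, a secreted ER protein that binds BiP, rose by 0.64 ± 0.14 (edgeR adjusted p = 0.00596), Dnajc3, the BiP co-chaperone p58IPK, by 0.41 ± 0.08 (0.00181) and Hyou1, a nucleotide exchange factor of BiP, by 0.37 ± 0.10 (0.0263). Manf read 103, 114, 123 and 92.9 CPM in vehicle PBS, 185, 107 and 124 in metformin PBS, 132, 113 and 110 in vehicle PM, and 181, 183 and 192 in metformin PM. Metformin PBS 1 lay among the metformin PM libraries, and metformin PBS 3 lay inside the vehicle PBS range. Exons of Manf share 146 of 3524 bases with Dcaf1 and 166 with 4930524O07Rik, both on the opposite strand. Of 19 other degradation genes 3 rose: Sel1l, the partner of HRD1, by 0.34 ± 0.06 (edgeR adjusted p = 0.000713), Edem3 by 0.26 ± 0.07 (0.0264) and Edem1 by 0.23 ± 0.06 (0.0187), both lectin-like factors that mark glycoproteins for disposal. Of 15 disulfide enzymes 2 rose, Txndc11 by 0.48 ± 0.11 (edgeR adjusted p = 0.00849) and the oxidase Ero1lb by 0.29 ± 0.08 (0.0438), and of 19 translocation genes none was called. The gene that fell was Ppp1r15a, which encodes GADD34, the phosphatase subunit that reverses PERK's block of translation. It read 75.3, 44.2 and 63.9 CPM in vehicle PM and 40.2, 39.9 and 42.8 CPM in metformin PM, a log2 fold change of -0.58 ± 0.17 (edgeR adjusted p = 0.0431).

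With PBS, metformin was followed by 3 higher and 1 lower of the 87 genes, 4.6% called against 3.07% of all genes, with a median of 0.0055. This share is near that of all genes, and of the 87, 3.45% were called higher against 1.13%. The 3 were Ddit3 at 0.88 ± 0.17 (edgeR adjusted p = 0.00775), Eif2ak3 at 0.32 ± 0.07 (0.0128) and Creb3l2 at 0.31 ± 0.08 (0.0399). Dnajc10, a disulfide reductase of the ER, was the lower one, at -0.31 ± 0.06 (edgeR adjusted p = 0.00664). No other chaperone, degradation or translocation gene was called there. Without metformin PBS 4 none of the 87 was called by edgeR, against 1% of all genes. In that fit 15 had an unadjusted p under 0.05, a threshold whose share of all genes was not counted. There Ddit3 stood at 0.777 (edgeR adjusted p = 0.0601), Eif2ak3 at 0.285 (0.0888), Creb3l2 at 0.286 (0.152) and Dnajc10 at -0.284 (0.0539). Without metformin PBS 1 Creb3l2 was not called (0.228, edgeR adjusted p = 0.152) and the number higher was 2 (2.3% against 1.08% of all genes). Without metformin PBS 3 the number higher was 5 (5.75% against 0.928%).

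With PM in mice on metformin, 17 of the 87 were higher and 1 lower, 19.5% called higher against 7.18% of all genes and 20.7% called in either direction against 12.8%. The median log2 fold change was 0.1 against 0.0048 for all genes. Single libraries moved this count: 25 were higher without metformin PBS 1 (28.7% against 6.97% of all genes in the same fit). The number was 10 without metformin PM 4 (11.5% against 5.14%) and 7 without metformin PBS 4 (8.05% against 4.38%). It was 5 without metformin PM 3 (5.75% against 3.96%) and 4 without metformin PBS 3. Those 4 were 4.6% of the 87, against 4.08% of all genes called higher in the same fit. None of the 10 other sensors and transcription factors was called with all libraries in the fit. Of the chaperones 5 of 15 were called, among them Dnajc3 at 0.29 ± 0.08 (edgeR adjusted p = 0.0161), Dnajb11, a J-domain partner of BiP, at 0.25 ± 0.07 (0.0233), and the lectin chaperone Calr at 0.22 ± 0.06 (0.0187). Disulfide enzymes gave 4 of 15, with Prdx4 at 0.38 ± 0.10 (edgeR adjusted p = 0.0111), Pdia6 at 0.32 ± 0.08 (0.0106) and Pdia3 at 0.27 ± 0.06 (0.00705), and all 15 had a fitted change above 0. Translocation genes gave 5 of 19, with the translocon subunit Sec61g at 0.45 ± 0.10 (edgeR adjusted p = 0.00732) and the translocon-associated Ssr2 at 0.32 ± 0.09 (0.0177) and Ssr1 at 0.24 ± 0.05 (0.00302). Sel1l, at 0.24 ± 0.05 (edgeR adjusted p = 0.00564), was the 1 degradation gene called. In the PERK branch Asns, the asparagine synthetase gene and an ATF4 target, rose by 1.33 ± 0.26 (edgeR adjusted p = 0.0018), Ppp1r15b by 0.20 ± 0.06 (0.0336), and Atf3 fell, at -0.30 ± 0.08 (0.0158). Ppp1r15b shares 640 of its 5594 exon bases with Gm26616, which had 197 to 341 counts. The plasma cell, monocyte, endothelial and alveolar macrophage marker sums given above moved with this comparison, and their part in these counts was not tested.

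With PM in mice on vehicle, 2 of the 87 were higher and 2 lower, 4.6% called against 4.85% of all genes, a share near that of all genes, with a median log2 fold change of 0.046. The number called was 1 without vehicle PM 1 (1.15% against 3.63% of all genes). It was 2 (2.3%) in each fit that left out vehicle PBS 2, vehicle PM 2 or vehicle PM 3. In these fits 3.74%, 2.97% and 3.38% of all genes were called. The 4 genes are in the PERK list. Asns was higher at 1.16 ± 0.23 (edgeR adjusted p = 0.00354) and Ppp1r15a at 0.71 ± 0.16 (0.0125), and Atf3 and Sesn2 were lower at -0.26 ± 0.07 (0.0482) and -0.34 ± 0.08 (0.0183). No chaperone, disulfide enzyme, degradation or translocation gene was called. For the difference of the PM effects none of the 87 was called by edgeR, against 1.44% of all genes. Of the 87, 13 had an unadjusted p under 0.05, a threshold whose share of all genes was not counted. Without metformin PBS 1 the difference was called for 2 of the 87, 2.3% against 2.08% of all genes.

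**Figure D3:**
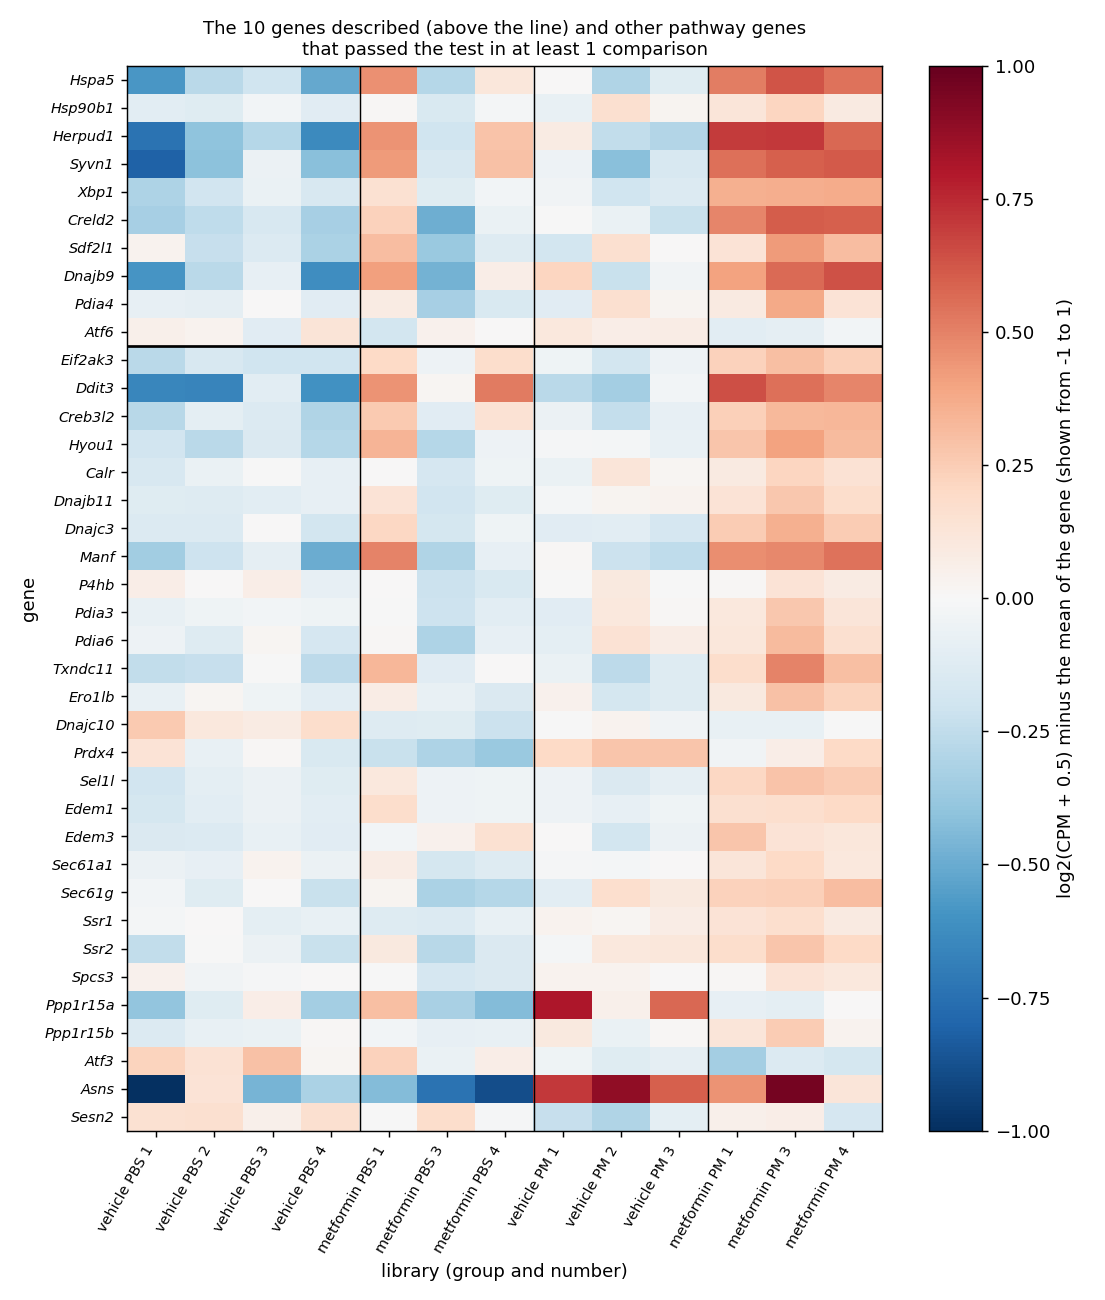
Level of the 10 genes (above the thick line) and of the other pathway genes called in at least 1 comparison (below it) in each library (columns, by group and number), as log2(CPM + 0.5) minus the gene's mean; the colour scale is limited to -1 to 1. Of the 38 genes, 33 to 34 are above their mean in the 3 metformin PM columns, 28 in the metformin PBS 1 column and 4 in the metformin PBS 3 column, and Atf6, Dnajc10 and Atf3 are below their mean in all 3 metformin PM columns.

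Over the 13 libraries the log2 CPM of the 10 genes ran with that of Hspa5 to differing degrees. Pearson's r was 0.98 for Herpud1, the highest of the 11906 genes tested after Hspa5 itself, 0.966 for Syvn1 and for Dnajb9, 0.957 for Xbp1 and 0.929 for Creld2. It was 0.724 for Sdf2l1, 0.685 for Hsp90b1 and 0.62 for Pdia4, and -0.699 for Atf6. The 5 genes outside the 10 with the highest r were Creb3l2 (0.978), Chordc1 (0.968), Manf (0.965), Hspa8 (0.965) and Edem1 (0.96). Hspa8 encodes a cytosolic Hsp70 and Chordc1 an Hsp90 co-chaperone of the cytosol, so 2 of the 5 lie outside the ER. Both rose with metformin, Chordc1 by 0.70 ± 0.11 with PBS (edgeR adjusted p = 0.00279) and 0.88 ± 0.12 with PM (9.43e-05), and Hspa8 by 0.57 ± 0.13 (0.0239) and 0.58 ± 0.14 (0.0183). With PBS, Hspa8 was not called without metformin PBS 1 (0.38; edgeR adjusted p = 0.127) or metformin PBS 4 (0.563; 0.0952), and Chordc1 was called without any 1 of the 3. These correlations describe likeness over 13 libraries that share the 4 groups, and carry no test. Chordc1 and Hspa8 were picked by their r with Hspa5 in these same libraries, and Hspa5 was itself called higher with metformin. Their changes with metformin are therefore not a separate result.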

How the data were processed

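Polyadenylated RNA of sorted alveolar macrophages was measured in 13 libraries, 1 per mouse, from 100 ng of RNA, read as 75 bp single ends. The deposited table holds whole-number counts per gene, made by the authors with TopHat2 and HTSeq on mm10, with bcl2fastq 2.19 for demultiplexing and edgeR named for testing, per the submitters' processing notes. Annotation release and strand setting are not given in the sources used here, and the file's gene positions and lengths (Start, End and Length, unit other) are as deposited. The Length column exceeded the gene's own span for 1982 genes, so RPKM here uses the union of exons in GENCODE M21. Symbols were found for 42462 of 43430 gene IDs.

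All 13 libraries entered 1 edgeR 4.0.16 fit (R 4.3.3; TMM scaling, filterByExpr, quasi-likelihood, 1 coefficient per group, 9 residual degrees of freedom, median prior degrees of freedom 10.2), and p-values were adjusted over all 11906 genes tested in each of 5 comparisons. A gene is called where its adjusted p is under 0.05, and only called genes are said to have risen or fallen. The tested genes held at least 99.8% of the counts of every library. Alternatives were DESeq2 1.42.0, RLE scaling, no filter, a stricter filter (5 CPM in 3 libraries), the replicate number as a block, only the groups compared, and each library left out. The 10 genes, the 6 pathway lists and the marker lists were chosen with earlier results of these data known. Named from each list are up to 3 called genes a comparison with the lowest adjusted p, and the 5 genes of at least 5 CPM most correlated with Hspa5. Promoters are from RefSeq (GRCm38.p6). No 2 libraries of a group agreed within sampling noise (chi-square per degree of freedom at least 2.14). The labels call the replicates biological. The method was tested on simulated data, and figures used Matplotlib 3.10.9.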

Additional observations from a re-analysis of the deposited data

Results flagged for a closer look

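Of the 10 genes, 1 had a library that stood apart in the group of 4. Hsp90b1 read 1087 CPM in vehicle PBS 3 against 1019 to 1028 CPM in the other 3 vehicle PBS libraries, a gap of 0.868 of the group's range, above Dixon's 95% critical value for 4 samples. Chance alone marks about 1 in 20 groups, and 10 genes were examined. The same library was the highest of its group for 8 of the 10 genes.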

How the results depend on the processing

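Of 940 single-gene values recomputed for the 10 genes, 859 kept their direction and side of the threshold, 54 lost the call, 20 gained one and 7 changed sign. In the count of ER stress genes called, leaving out each library gave 0 to 1 for PM on vehicle, 2 to 9 for PM on metformin, 1 to 4 for metformin with PBS, 5 to 6 for metformin with PM and 0 to 2 for the difference. Over all genes these fits called 359 to 645, 884 to 1666, 121 to 503, 419 to 954 and 113 to 262. Without a filter, the ER stress genes called were 3 for PM on vehicle, 5 for metformin with PBS and 2 for the difference. All genes called were then 849, 813 and 507, against 578, 365 and 171 with the filter. DESeq2 called 4 ER stress genes and 1266 genes in all for PM on metformin. With only the groups compared, metformin with PBS gave 1 ER stress gene and 200 genes in all. The cause was not tested. With the replicate number as a block, metformin with PBS gave 1 ER stress gene and 245 genes in all. Metformin with PM gave 5 ER stress genes and 535 genes in all under that block. Same-numbered libraries share only a number: of 16 pairs 1 had a correlation of deviations over 0.1 (-0.103 to 0.119), and 5 correlated best with their own number. The signs that changed were those of values that were not called, and leaving out each library gave them these ranges. Atf6 ran from -0.112 to 0.00272 for PM on metformin (the positive value without metformin PBS 3) and from -0.112 to 0.00332 for metformin with PBS (positive without metformin PBS 1). For metformin with PBS, Sdf2l1 ran from -0.0856 (without metformin PBS 1) to 0.262 and Pdia4 from -0.167 to 0.0378 (without metformin PBS 3). For the difference, Herpud1 ran from -0.0781 to 0.226 and Dnajb9 from -0.0873 to 0.336 (negative without metformin PBS 3), and Hsp90b1 from -0.00335 (without vehicle PM 1) to 0.121. RLE scaling moved the median of all genes by under 0.1 in every comparison. Calls of Hspa5, Herpud1, Syvn1, Xbp1 and Creld2 for metformin with PM, and of Herpud1 for metformin with PBS, held under every alternative run. Each value of the 10 genes rests on 229 counts or more.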

Other observations

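Over all tested genes in the promoter table (9024), 23 held ERSE or ERSE-II, 0.255%, and of 69 other pathway genes found there 6 did: Calr, Canx, Derl3, Dnajb11, Dnajc3 and Pdia6. Outside the 10 genes described, 18 tested genes held 1 of the elements. With PM on metformin 5 of these 18 were called higher by edgeR, Calr, Dnajb11, Dnajc3, Pdia6 and Hnrnpa3, against 7.18% of all genes, and 4 of the 5, all but Hnrnpa3, are pathway genes already counted in the report. With PM on vehicle none was higher and 1 of the 18, Adcy3, was lower, against 4.85% of all genes called in either direction. With PBS, metformin was followed by a higher call for 1 of the 18, Rbm39, against 1.13% of all genes. With PM it was followed by a higher call for 1 of the 18, Dnajc3, against 4.08%. None of the 18 was called for the difference of the PM effects, against 1.44% of all genes. Hnrnpa3, Adcy3 and Rbm39, which are not genes of the ER stress response, are named after their values were seen. The median log2 fold change of the 18 was 0.064 for PM on metformin and -0.012 for metformin with PM.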
